A study of Saccharomyces cerevisiae with 8 samples.

Results

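The *SSA* genes encode the cytosolic Hsp70 chaperones of budding yeast. All 4 members, *SSA1* (YAL005C), *SSA2* (YLL024C), *SSA3* (YBL075C) and *SSA4* (YER103W), were taken by their gene identifiers from the 5797 genes in each deposited table, and all 4 passed the minimum mean of 10 in both tables. The family was selected on earlier results of these data. Which values were used is not recorded, so the normalized read counts by strain and by allele are both treated as used. Its differences between populations and between alleles are therefore given as values with their errors (limma estimates ± SE), without a *P*, and counts of members past a threshold are descriptions only.

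Hsp70 proteins bind short hydrophobic stretches of unfolded polypeptides in a cycle of ATP binding and hydrolysis. J-domain proteins deliver clients and stimulate the ATPase, and nucleotide exchange factors release ADP and reset the cycle. In laboratory yeast *SSA1* and *SSA2* are made during growth at normal temperature, whereas *SSA3* and *SSA4* are induced by heat and other stress under the transcription factor Hsf1. At least 1 member must be expressed at a sufficient level for growth, so the members can partly stand in for one another.

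RNA-seq was performed on 1 culture of each of 8 diploid strains grown to mid-log phase in YPD, a rich glucose medium, at 30°. UWOPS03.461.4 and its fellow isolates UWOPS05.227.2 and UWOPS05.217.3 are the 3 Malaysian parents, all labeled MATa/@ HO. Of the 2 wine/European parents, BC187 is also labeled MATa/@ HO, and RM11-1 is a cross of RM11-1a and RM11-1b that carries ura3 and ho::kanMX, and lys2/LYS2 and leu2/LEU2 by the strain list of the study. The 3 hybrids are labeled MATa/@ HO, but the strain list gives YHL058 as heterozygous for the HO deletion that RM11-1b carries. YHL058 joined UWOPS03.461.4 with RM11-1b, YHL063 joined UWOPS03.461.4 with BC187, and in YHL065 BC187 was joined with UWOPS05.217.3. Values are the normalized read counts deposited by the authors, whose upper quartile is 6442 in every parent and 2010 in every allele column. Isolates of a population and hybrids served as replicates, so the spread between replicates includes strain differences. In a bulk culture, a larger number of expressing cells and more RNA per cell cannot be told apart.

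Each member is a single uninterrupted reading frame in the S288C reference annotation (R64), and no annotated gene overlaps any of them. *SSA1* lies at chrI:139503-141431 on the minus strand, with a coding length of 1929 bases. *SSA2* is at chrXII:95566-97485 on the minus strand (1920 bases), *SSA3* at chrII:84499-86448 on the minus strand (1950 bases) and *SSA4* at chrV:364589-366517 on the plus strand (1929 bases). The coding sequences of *SSA1* and *SSA2* were 96.8% identical over aligned bases, with 61 mismatches and 9 gapped positions. *SSA3* and *SSA4* were 77.5% identical to each other, and every pair formed by 1 of these genes with *SSA1* or *SSA2* was between 74.2% and 74.9% identical.

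Because only reads that mapped to 1 place without mismatches were counted, the similarity of *SSA1* and *SSA2* bears on their values. Of the 100-base windows of *SSA1*, 45.8% (838 of 1830) occur more than once in the reference genome. For *SSA2* the share was 46.02% (838 of 1821), and every repeated window of either gene was in the other. *SSA3* and *SSA4* had 0 repeated windows of 1851 and 1830. Across the reference annotation, 6.30% of 5998 protein-coding genes had any such window. Between bases 298 and 1256 of the *SSA1* coding sequence only 3 bases differ from *SSA2*, and between 1291 and 1667 none does. A 100-base read from within an identical stretch matches both genes. Reads were sequenced in pairs, and whether a mate in a differing stretch placed such a read was not examined. The differences sit at the ends, with 26 in the first 297 bases and 33 after base 1667. The shares describe the S288C sequence, and those of the Malaysian and wine/European genomes were not analysed here.

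**Figure D1:**
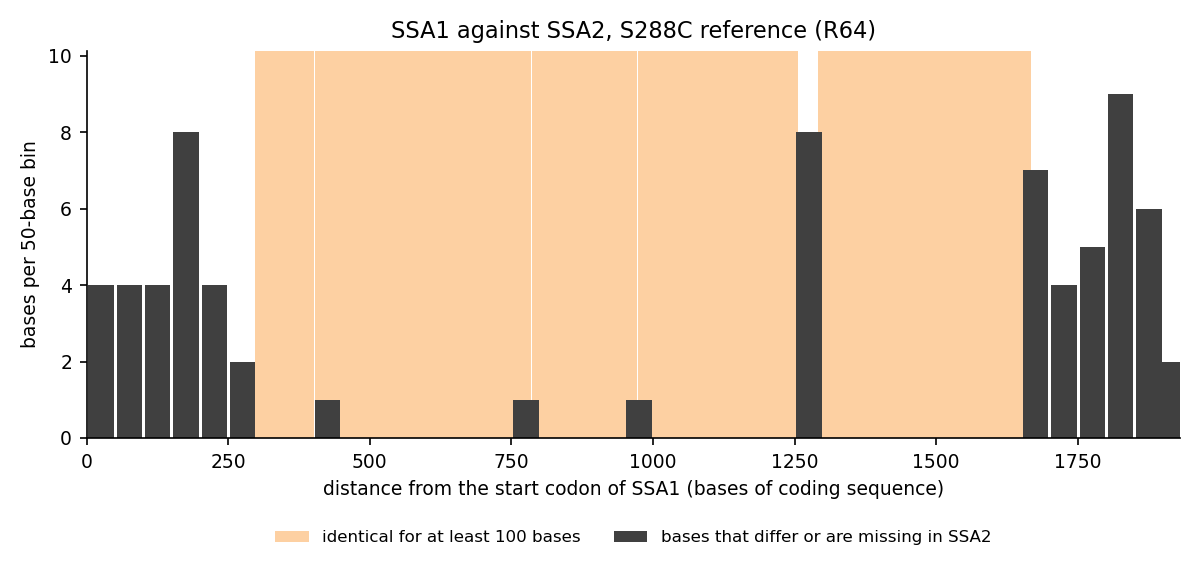
Differences between *SSA1* and *SSA2* along the *SSA1* coding sequence in the S288C reference (x axis, distance from the start codon in bases). Bars count the bases of each 50-base bin that differ or are missing in *SSA2*, and shading marks stretches of at least 100 identical bases. Differences concentrate in the first 297 bases and after base 1667, with 8 more between bases 1257 and 1290.

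The first 120 bases of the longest shared stretch, which runs for 383 bases, show a part of the genes where a 100-base read fits both. It is at chrI:140910-141029 in *SSA1* and chrXII:96964-97083 in *SSA2*, printed along the coding strand.
*SSA1* and *SSA2*, coding bases 403 to 522: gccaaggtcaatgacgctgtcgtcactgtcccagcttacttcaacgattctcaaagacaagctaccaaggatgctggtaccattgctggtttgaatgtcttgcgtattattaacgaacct

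The 60-base stretch without gaps in which the copies differ most shows where reads can be told apart. It lies at chrI:139712-139771 in *SSA1* and chrXII:95766-95825 in *SSA2*, and capitals mark the 9 bases that differ.
*SSA1*, coding bases 1661 to 1720: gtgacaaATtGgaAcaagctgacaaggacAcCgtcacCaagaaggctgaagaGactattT
*SSA2*, coding bases 1661 to 1720: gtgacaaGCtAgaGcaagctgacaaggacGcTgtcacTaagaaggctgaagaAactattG

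Among the parents, the transcripts of *SSA1* and *SSA4* were higher in every Malaysian strain than in either wine/European strain, whereas those of *SSA2* and *SSA3* overlapped between the populations. The ratio of the population means was 2.15 for *SSA1* and 1.495 for *SSA4*. The populations did not overlap for 48.9% of all genes tested, and for 26.5% the Malaysian strains were the higher ones.

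*SSA1* is made during growth at normal temperature in laboratory yeast. Its normalized read count was 13493 in UWOPS03.461.4, 10893 in UWOPS05.217.3 and 11601 in UWOPS05.227.2, against 4871 in BC187 and 6265 in RM11-1. Malaysian values are given in this order of strains throughout. The lowest Malaysian value was well above the higher wine/European one. Malaysian strains averaged 11996 ± 1344 (SD, n = 3), against 5568 ± 986 (SD, n = 2) for wine/European strains. Limma gave a log2 fold change of 1.11 ± 0.16 (SE). Over the 6 possible pairs across the populations, the log2 ratio lay between 0.80 and 1.47.

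*SSA2*, the constitutive close copy, had normalized read counts of 125828, 134559 and 123667 in the Malaysian strains in the same order, against 146870 in BC187 and 89214 in RM11-1. The Malaysian strains were close to one another and fell between the wine/European strains, which were the highest and the lowest of the 5. Malaysian strains averaged 128018 ± 5767 (SD, n = 3) and wine/European strains 118042 ± 40769 (SD, n = 2), with a log2 fold change of 0.16 ± 0.23 (SE). Malaysian strains were higher in 3 of the 6 pairs. The log2 fold change was 0.52 against RM11-1 alone and -0.20 against BC187 alone, so its direction was set by which wine/European strain was used.

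*SSA3*, which is stress-inducible, had normalized read counts of 1452, 1210 and 1212 in the Malaysian strains in the same order, against 1321 in BC187 and 1554 in RM11-1. The populations overlapped, with UWOPS03.461.4 above BC187. The log2 fold change was -0.16 ± 0.14 (SE), and Malaysian strains were higher in 1 of 6 pairs.

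*SSA4*, which is also stress-inducible, had 852, 924 and 909 normalized reads in the Malaysian strains and 591 and 606 in BC187 and RM11-1. Both populations were tight and did not overlap, averaging 895 ± 38.0 (SD, n = 3) for Malaysian strains and 598.5 ± 10.6 (SD, n = 2) for wine/European strains. The log2 fold change was 0.58 ± 0.11 (SE), and single pairs gave between 0.49 and 0.64.

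**Figure D2:**
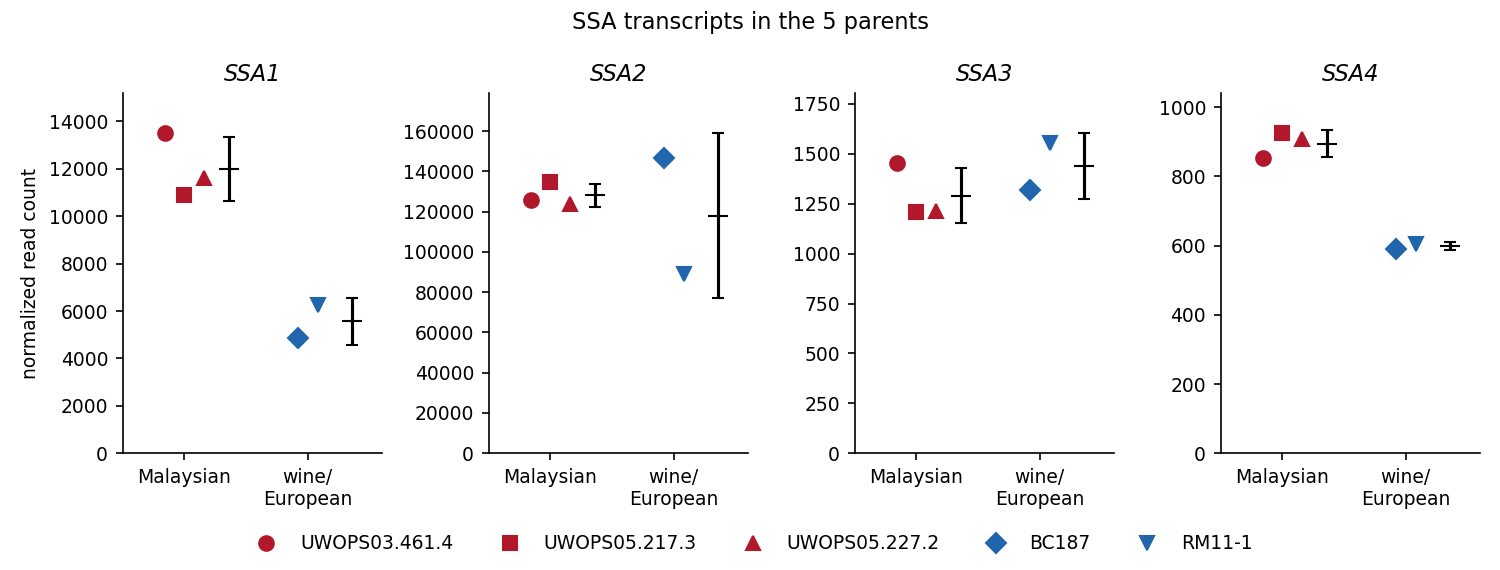
Normalized read counts (y axes, each from 0) of the 4 *SSA* genes in the 3 Malaysian parents (red, left) and the 2 wine/European parents (blue, right), 1 symbol per strain. Black bars show mean ± SD. The populations separate for *SSA1* (10893 to 13493 in Malaysian, 4871 and 6265 in wine/European strains) and *SSA4*, and overlap for *SSA2* and *SSA3*.

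Of the 4 members, 2 (*SSA1* and *SSA4*) were among the genes past an adjusted *P* of 0.05 in the limma fit across 5792 genes. Because such values may have chosen the family, this is a description and no test of it. Of all genes tested, 10.9% were past it, 5.06% with a higher and 5.82% with a lower value in Malaysian yeast. The median log2 fold change was 0.37 over the 4 members and 0.03 over all genes. Leaving out a strain takes a replicate from the fit of every gene, and the share of all genes past the threshold is given only with all strains. Without UWOPS03.461.4 or without UWOPS05.227.2 neither gene was past the threshold. The log2 fold changes were then 1.02 and 1.13 for *SSA1* and 0.61 and 0.57 for *SSA4*. *SSA4* also dropped below it without UWOPS05.217.3 (0.56), without BC187 (0.56) and after quantile normalization (0.55).

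Compared per kilobase of coding length, *SSA2* was by far the most abundant member in every strain. Its normalized count per kilobase was between 64410 and 70083 in Malaysian strains and was 76495 in BC187 and 46466 in RM11-1, which placed it between percentiles 95.4 and 97.2 of all genes. *SSA1* followed with 5647 to 6995 per kilobase in Malaysian strains, against 2525 in BC187 and 3248 in RM11-1. Then came *SSA3*, with 621 to 745 per kilobase in Malaysian strains and 677 and 797 in BC187 and RM11-1. *SSA4* was lowest, at 442 to 479 per kilobase in Malaysian strains and 306 and 314 in BC187 and RM11-1. The order was the same in all 5 strains, and no neighbors in it overlapped within a population. Per kilobase, the level of *SSA2* exceeded that of *SSA1* by 9.37-fold to 12.4-fold in Malaysian strains, and by 30.3-fold in BC187 and 14.3-fold in RM11-1. The full coding length was used, although 45.8% of the 100-base windows of *SSA1* and 46.0% of those of *SSA2* are shared. The values of these 2 genes per kilobase may therefore be too low beside those of other genes, and were not corrected.

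As the copies are so alike, their sum was also examined. *SSA1* made up 9.68%, 7.49% and 8.58% of the summed *SSA1* and *SSA2* counts in the 3 Malaysian strains (same order), against 3.21% in BC187 and 6.56% in RM11-1. With the counts of both genes added together, the log2 fold change was 0.22 ± 0.22 (SE), which is close to that of *SSA2*. The sum of the 4 members was 141625, 147586 and 137389 in the Malaysian strains, against 153653 in BC187 and 97639 in RM11-1, and followed *SSA2*.

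In the hybrids, both alleles are read out in the same cell and under the same regulators. The Malaysian allele of *SSA1* was higher than the wine/European allele in all 3 hybrids, by 2.40-fold to 3.19-fold. The alleles of *SSA4*, in contrast, were nearly equal in each hybrid, and those of *SSA2* and *SSA3* overlapped across the hybrids.

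At *SSA1*, the Malaysian allele had a normalized read count of 6866 in YHL058, 13504 in YHL063 and 12904 in YHL065, against 2860, 4234 and 4251 for the wine/European allele in the same hybrids. Every Malaysian value was above every wine/European value. The Malaysian allele contributed 70.6%, 76.1% and 75.2% of the allelic reads. The Malaysian allele averaged 11091 ± 3672 (SD, n = 3), against 3782 ± 798 (SD, n = 3) for its wine/European counterpart, and limma gave a log2 ratio of 1.51 ± 0.31 (SE). Both alleles were lowest in YHL058, and the ratio varied less between hybrids than the level of the Malaysian allele.

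*SSA2* had 75941, 68588 and 77817 normalized reads from the Malaysian allele and 58208, 62306 and 72676 from the wine/European allele in YHL058, YHL063 and YHL065. The Malaysian allele was higher within each hybrid, but the alleles overlapped across hybrids, and its share was 56.6%, 52.4% and 51.7%. The log2 ratio was 0.21 ± 0.19 (SE).

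For *SSA3*, the Malaysian allele had 722, 664 and 523 normalized reads, against 775, 519 and 409 for the wine/European allele, in the same order of hybrids. The Malaysian allele was slightly lower in YHL058, where its partner comes from RM11-1, and higher in both hybrids with BC187. The log2 ratio was 0.20 ± 0.26 (SE).

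*SSA4* was read at 66, 136 and 95 for the Malaysian allele and 67, 139 and 93 for the wine/European allele. Within each hybrid the alleles differed by at most 3 normalized reads, while either allele was higher in YHL063 than in YHL058, by 2.06-fold for the Malaysian and 2.07-fold for the wine/European allele. The Malaysian share was 49.6%, 49.5% and 50.5%, and the log2 ratio was -0.01 ± 0.37 (SE).

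**Figure D3:**
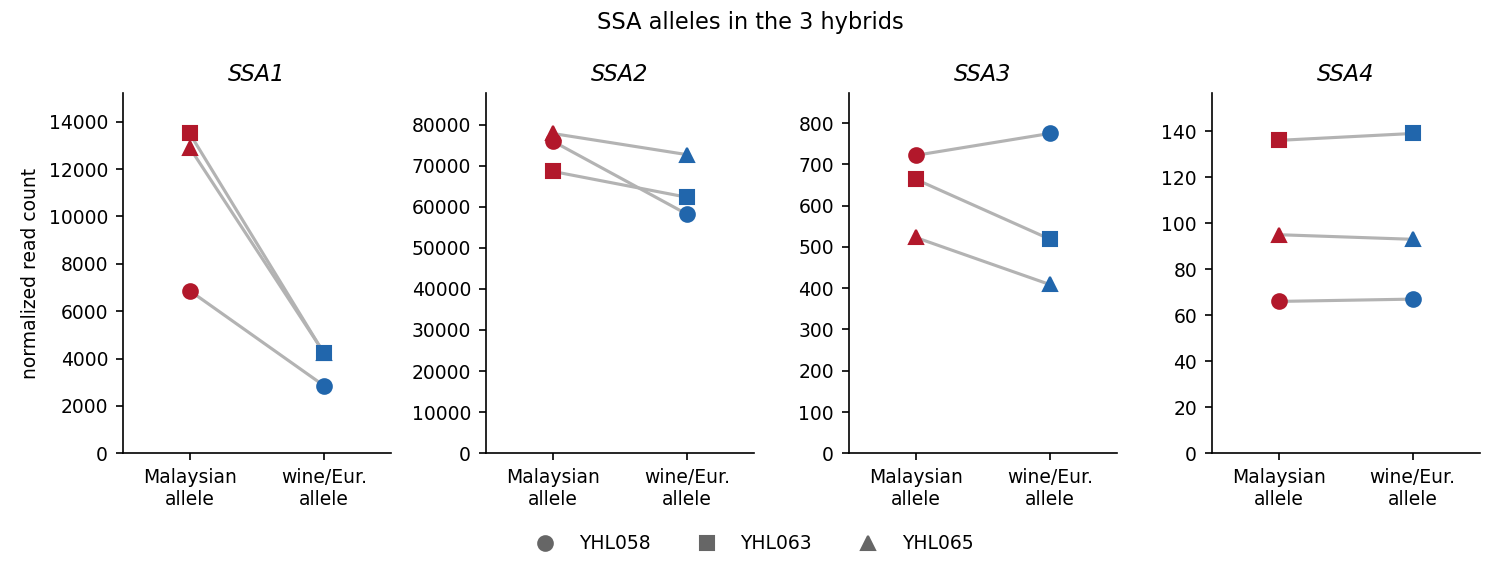
Normalized read counts (y axes, each from 0) of the Malaysian allele (red, left) and the wine/European allele (blue, right) of each *SSA* gene, with a line joining the alleles of 1 hybrid. All 3 lines fall steeply for *SSA1*, with 6866 to 13504 for the Malaysian and 2860 to 4251 for the wine/European allele, and are nearly flat for *SSA4*. The wine/European symbols of YHL063 and YHL065 coincide for *SSA1*.

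Of the 4 members, 1 (*SSA1*) was among the genes past an adjusted *P* of 0.05 in the limma fit across 5738 genes, again as a description and no test. Of all genes tested, 4.71% were past it, with the Malaysian allele higher for 2.07% and lower for 2.63%. The values of the alleles did not overlap for 23.2% of all genes, and for 11.9% the Malaysian allele was the higher one. The Malaysian allele was higher in all 3 hybrids for *SSA1* and *SSA2*, as for 29.3% of all genes. With the alleles of each hybrid paired in the fit, 17.9% of all genes passed (9.01% with the Malaysian allele higher and 8.87% lower), among them the same member. The standard error was then 0.10 for *SSA1* and 0.13 for *SSA4*. In the paired fit, *SSA1* was not past the threshold without YHL063 (log2 ratio 1.43). In the unpaired fit, *SSA1* was not past the threshold without YHL063, without YHL065 (log2 ratio 1.47), after quantile normalization (1.48) or without a mean-variance trend. Adding *SSA1* and *SSA2* together gave a log2 ratio of 0.33 ± 0.20 (SE), and *SSA2* made up most of that sum.

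Each hybrid can be set beside its own parents, although the difference between the 2 ratios was not tested because each table had its own normalization. At *SSA1*, the allele ratio and the ratio of the parents were 2.40 and 2.15 for YHL058, 3.19 and 2.77 for YHL063, and 3.04 and 2.24 for YHL065. The direction was the same in all 3, and the allele ratio was the larger each time. At *SSA4*, the allele ratios were 0.99, 0.98 and 1.02, where the parents had ratios of 1.41, 1.44 and 1.56. The parental difference of *SSA4* had no counterpart between alleles. At *SSA2*, the allele ratios were 1.30, 1.10 and 1.07, with parental ratios of 1.41, 0.857 and 0.916. At *SSA3*, they were 0.93, 1.28 and 1.28 between alleles, beside 0.93, 1.10 and 0.92 between parents. YHL063 and YHL065 share BC187, and YHL058 and YHL063 share UWOPS03.461.4, so these ratios are not independent.

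**Figure D4:**
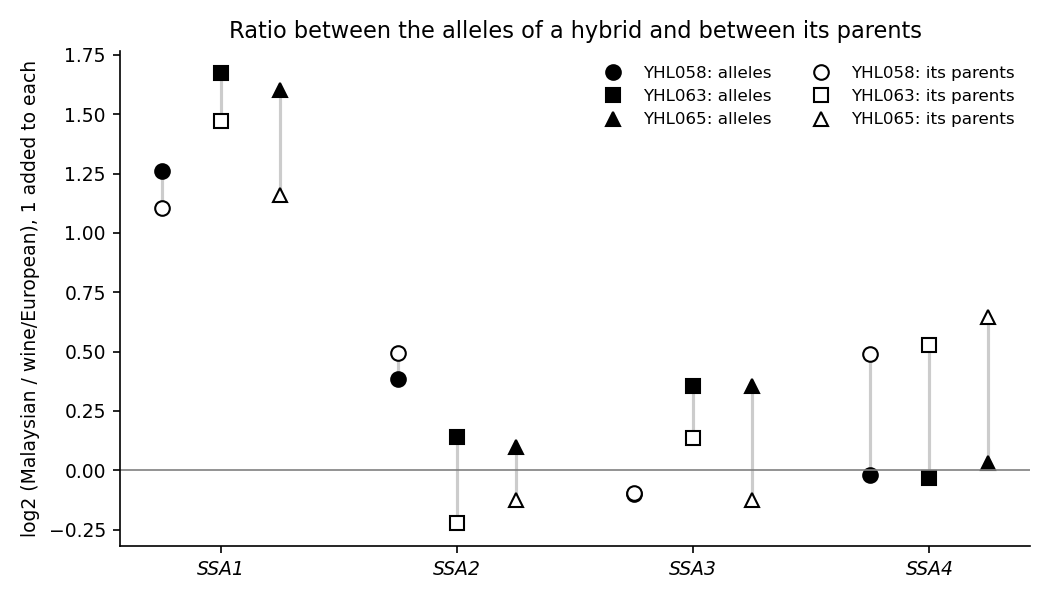
Log2 of the Malaysian over the wine/European value, with 1 added to each, between the alleles of a hybrid (filled symbols) and between the parents of that hybrid (open symbols) for each *SSA* gene. For *SSA1* all symbols are above 1, whereas for *SSA4* the alleles sit at 0 and the parents between 0.49 and 0.64. The filled and open symbols of YHL058 coincide for *SSA3*.

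The sum of both alleles, averaged over the hybrids and divided by the mean of the parents, was 1.58 for *SSA1*, 1.12 for *SSA2*, 0.89 for *SSA3* and 0.26 for *SSA4*. Over 5792 genes the median of this quotient was 0.65. Its scale was set by the normalization, with an upper quartile of 2010 in each allele column and 6442 in each parent. Only the place of a gene among all genes is therefore read from it. *SSA1* was at percentile 98.2 and *SSA4* at percentile 9.56. In hybrids, only reads that cover a difference between the parental genomes were counted, and the number of such differences in each member was not analysed here. The values of *SSA4* were the lowest of the family in the hybrids and rest on the fewest reads.

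The upstream sequences of the reference strain were searched for the letters bound by 2 kinds of known activator, on both strands of the window from 250 bases before to 50 bases after the start codon. Heat shock elements, bound by Hsf1, were searched as TTCNNGAA and GAANNTTC, which can overlap each other. *SSA2* had 4 matches and *SSA1* had 1, and 22.6% of 6020 promoters of this length had any. *SSA3* and *SSA4* had none in this window, and sites further upstream or with other letters or spacing were not searched. The stress response element, bound by Msn2 and Msn4, was searched as AGGGG and its complement. There were 2 matches at *SSA1* and 1 at *SSA4*, and 21.6% of all promoters had any. The letters at *SSA1* and *SSA2* are printed from the coding strand, with heat shock element matches in capitals. Matches are a description of the reference letters, and the sequences of the studied strains were not examined.
*SSA1*, chrI:141552-141651, 100 bases that begin at position -220 from the start codon: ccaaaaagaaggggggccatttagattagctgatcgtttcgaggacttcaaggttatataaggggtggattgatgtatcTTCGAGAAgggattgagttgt
*SSA2*, chrXII:97636-97735, 100 bases that begin at position -250 from the start codon: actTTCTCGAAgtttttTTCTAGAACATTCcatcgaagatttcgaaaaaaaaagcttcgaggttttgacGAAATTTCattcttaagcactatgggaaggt

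Of the 3 activators themselves, 1 passed the threshold, beside 10.9% of all genes, and this was *MSN2*, which rose in Malaysian yeast. It had 3535, 3528 and 3730 normalized reads in the Malaysian strains, against 2144 in BC187 and 2366 in RM11-1, and its log2 fold change was 0.67 ± 0.10 SE (limma, adjusted *P* = 0.0178). Leaving out UWOPS03.461.4 gave an adjusted *P* of 0.102, and leaving out UWOPS05.227.2 gave 0.108. *HSF1* had 1677, 1743 and 1560 normalized reads in Malaysian strains and 2238 and 2843 in BC187 and RM11-1 (log2 fold change -0.60 ± 0.14 SE, adjusted *P* = 0.0525 from limma). *MSN4*, the paralog of *MSN2*, had 2853, 2915 and 2716 normalized reads in Malaysian strains and 874 and 2083 in BC187 and RM11-1, with an adjusted *P* of 0.118 from limma. In the parents, all 3 activators had an unadjusted *P* under 0.05 in limma, beside 30.5% of all genes. Between alleles 0 of the 3 activators passed in limma, beside 4.71% of all genes, and 1 had an unadjusted *P* under 0.05, beside 17.6% of all genes. With the alleles paired, the Malaysian allele of *MSN4* was lower (log2 ratio -0.84 ± 0.11 SE, adjusted *P* = 0.0153 from limma). Without YHL063 this adjusted *P* was 0.143 from limma. The alleles of *MSN4* summed to only 260, 372 and 437 normalized reads in YHL058, YHL063 and YHL065. The part of these activators in the *SSA* levels was not tested.

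Among 18 cytosolic partners of the Ssa proteins, 0 passed the threshold between the parents in limma, beside 10.9% of all genes, and 4 had an unadjusted *P* under 0.05, beside 30.5% of all genes. Their median log2 fold change was 0.06, near the 0.03 of all genes. *YDJ1*, the main J-domain partner, was at 0.15 ± 0.19 (SE). Between alleles, 1 of the 18 passed and was lower, beside 4.71% of all genes that passed. This was *JJJ2*, a J-domain protein gene whose Malaysian allele had 206, 177 and 243 normalized reads in YHL058, YHL063 and YHL065, against 472, 476 and 478 for the wine/European allele (log2 ratio -1.20 ± 0.16 SE, adjusted *P* = 0.0118 from limma). Its adjusted *P* was 0.074, 0.30 and 0.0632 without YHL058, YHL063 and YHL065. With the alleles paired, *CAJ1*, also a J-domain protein gene, passed as well, as did 17.9% of all genes, with the Malaysian allele higher (log2 ratio 0.26 ± 0.05 SE, adjusted *P* = 0.04 from limma). Its adjusted *P* lay between 0.0855 and 0.244 with any 1 hybrid left out of the paired fit.

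Of 8 Hsp70 genes outside the family, 0 passed between the parents in limma and 2 had an unadjusted *P* under 0.05, beside the same 10.9% and 30.5% of all genes. These 2 were *SSC1* (log2 fold change 1.59 ± 0.42 SE, adjusted *P* = 0.07 from limma) and *SSQ1* (0.46 ± 0.15 SE, adjusted *P* = 0.117 from limma). Both were higher in every Malaysian strain than in either wine/European strain, as were 26.5% of all genes. Of the 8, 3 had a log2 fold change above 0, and the median was -0.06. *SSB1* and *SSB2*, the ribosome-associated Hsp70s, had log2 fold changes of -0.45 ± 0.30 (SE) and -0.22 ± 0.20 (SE). Between alleles 1 of the 8 passed, beside 4.71% of all genes, and this was *SSB1*. Its Malaysian allele had 80, 93 and 4 normalized reads in YHL058, YHL063 and YHL065, against 71732, 292197 and 161987 for the wine/European allele (adjusted *P* = 0.00388 from limma, and 0.115 without YHL063). *SSB1* and *SSB2* are 97.4% identical in coding sequence, and 31.8% of the 100-base windows of each occur in the other. *SSB2* also read lower from the Malaysian allele, with 9768, 16348 and 39994 normalized reads, against 44545, 40074 and 49468, though without passing the threshold. In the Malaysian parents *SSB1* was between 196532 and 208703. The near absence of Malaysian *SSB1* reads in the hybrids therefore had no counterpart in the parents, and the part of the close copy in it was not tested. The alleles of *SSA1* and *SSA2* showed no such near absence, but the part of the close copy in their values was not tested either.

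The genes whose values followed each member most closely over the 5 parents were sought among 5691 others with a mean of at least 100, by Pearson's correlation of log2 values. For *SSA1* these were *SPG1* and *MKT1* (0.999 and 0.998), for *SSA2* *UTR2* and *LTE1* (0.994 and 0.992), for *SSA3* *SRS2* and *CIK1* (0.992 and 0.984), and for *SSA4* *AAD14* and *RRP42* (0.998 each). The 5 points fall into 2 populations, and 395 genes were at 0.95 or more with *SSA1* and 243 with *SSA4*. Fewer were so close to the members that did not separate the populations, at 43 for *SSA2* and 14 for *SSA3*. Within the family, *SSA1* and *SSA4* were the most alike (0.94), though *SSA4* ranked only 516 among the genes compared in likeness to *SSA1*. *SSA2* ranked only 2914 in likeness to its close copy *SSA1* (0.10).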

How the data were processed

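RNA was selected for poly(A), fragmented and sequenced as 100-base paired reads. Per the paper's methods, the authors mapped reads with Bowtie (version 0.12.7 in the submitters' processing notes) to strain genomes amended with SNPs, and kept uniquely mapping reads without mismatches. For a hybrid, the reference was the pair of parental genomes in 1 file. The build of the reference is not given in the sources used here. The authors summed reads per gene and normalized them with EDASeq, by upper quartile and for GC content, and the deposited values are whole-number scores in the unit of read counts. These scores do not give the depth behind a value, so no counting intervals are given. By the read statistics of the study, YHL065 had far fewer uniquely mapping reads than the other hybrids. Its allele columns were nevertheless scaled to similar sums, so its values rest on fewer reads. Column sums were between 63253487 and 67038479 in the parents and between 18739636 and 20966132 in the allele columns. The deposited fold ratios, their log2 values and the p-values of the authors' DESeq comparisons were not used.

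Both tables, with 0 columns of other series, were fitted separately over all genes with a mean of at least 10 with limma (version 3.58.1, R 4.3.3) on log2(value + 1), with a mean-variance trend and Benjamini-Hochberg adjustment at 0.05. This scale understates changes of low genes. Alleles were not paired in the main fit, after the methods of the study. The alleles of a hybrid come from 1 culture and pair by design, and their deviations from the allele means correlated at 0.67, 0.54 and 0.48 across genes in YHL058, YHL063 and YHL065. Fits with the hybrid as a block are given where they change a call. Parental replicates are single cultures of different strains, so p-values between the parents measure the spread between strains. Between alleles they measure the spread between hybrids, of allele levels or, with alleles paired, of allele ratios. YHL058 and YHL063 share the UWOPS03.461.4 alleles, and YHL063 and YHL065 share those of BC187. The hybrids are therefore not independent replicates.

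Coordinates, sequences and 100-base windows on both strands come from the RefSeq S288C assembly R64, in which 5792 of 5797 identifiers were found, with Biopython 1.88, numpy 2.4.6 and pandas 2.3.3 in Python 3.11.15. Sequences were aligned globally. Figures were made with matplotlib 3.10.9.

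Members, lists and tests were chosen with earlier results of these data known. Genes named are the 4 members, genes of the 3 lists (18 Ssa partners, 8 other Hsp70s, 3 activators) past the threshold in a comparison, *SSB1* and *SSB2*, and for each member the 2 genes most like it. *HSF1*, *MSN4*, *CAJ1*, *YDJ1*, *SSC1* and *SSQ1* are named outside this rule, with their values known. The fit was first tested on simulated data. Alternatives were adding 10 or 0.5 in place of 1, dropping the filter or raising it to 100, median-ratio or quantile scaling, no trend, leaving out each strain or hybrid, pairing of alleles, *SSA1* and *SSA2* summed, windows of 75 or 50 bases, and Spearman correlation for likeness.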

Additional observations from a re-analysis of the deposited data

Results flagged for a closer look

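For *HSF1* and *MSN4*, every parental pair had a ratio on one side of 0 on the log2 scale and every hybrid had one on the other. Neither passed the threshold in the parents or in the unpaired fit of the alleles, and the difference between parents and hybrids was not tested. *HSF1* was lower in every Malaysian parent than in both wine/European parents (log2 fold change -0.60), and its Malaysian allele was higher by a small margin in all 3 hybrids (log2 ratio 0.044 ± 0.20 SE, with 2821, 1907 and 2500 normalized reads, against 2709, 1853 and 2444 for the wine/European allele). *MSN4* was higher in all 6 parental pairs (log2 fold change 1.07) and its Malaysian allele was lower in all 3 hybrids (log2 ratio -0.84, with 98, 126 and 157 normalized reads, against 162, 246 and 280). The alleles of *MSN4* summed to only 260, 372 and 437 normalized reads, against 874 to 2915 in the parents. As for *SSA4*, only reads over a parental difference were counted in the hybrids.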

How the results depend on the processing

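The log2 changes of the 4 *SSA* genes moved by less than the spread between replicates under every pseudocount, filter, scaling and trend setting, and the calls that changed are given here. No value of *SSA4* between alleles came from the minimum of 100, which it misses. Summing *SSA1* and *SSA2* gave 0.22 in the parents and 0.33 between alleles in place of 1.11 and 1.51 for *SSA1*. *SSA1* was only 3.21% (BC187) to 16.4% (Malaysian allele of YHL063) of that sum. The sum therefore mostly follows *SSA2* and cannot test the difference of *SSA1*. Leaving out a parent gave *SSA2* a range of -0.20 to 0.52. The number of *SSA* genes past the threshold in the parents, 2 with all strains, was 1 after quantile normalization and 0 to 2 with a strain left out. Between alleles it was 1, and 0 after quantile normalization or without a trend, and 0 to 1 with a hybrid left out, with or without the replicate block (pairing by hybrid). With all hybrids the block changed no call among the members, and without YHL065 it brought *SSA1* past the threshold. Partners past the threshold in the parents numbered 0, 1 after quantile normalization and 0 to 2 with a strain left out. Other Hsp70s numbered 0, and 0 to 2 with a strain left out. Between alleles, partners numbered 1, 2 with the replicate block, 0 with any hybrid left out and 0 to 2 with the block and a hybrid left out. Other Hsp70s numbered 1, 0 to 1 with a hybrid left out and 0 to 2 with the block as well. The block with a hybrid left out was chosen after seeing the data. Shares of all genes past the threshold are given only for the main fits and the paired fit with all hybrids. The counts under other settings therefore have no such share beside them. Repeated windows of *SSA1* rose to 51.9% at 75 and 57.9% at 50 bases. By Spearman correlation, 350, 58, 40 and 81 genes had the same rank order over the parents as *SSA1*, *SSA2*, *SSA3* and *SSA4*, so no closest gene could be named. No paired analysis was made for the parents, which are different isolates with no pairing in the design. With 1 wine/European strain left, it was assumed to vary like the Malaysian strains.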
